A study of Mus musculus with 8 samples.

Results

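The 10 genes described here make fatty acids or reshape them. They are the regulator Srebf1, the synthesis enzymes Acly, Acaca, Acacb and Fasn, the desaturases Scd1, Scd2 and Fads2, and the elongases Elovl5 and Elovl6. They were chosen by name, and each name matched 1 of the 54091 rows of the deposited table. All 10 were among the 15657 genes tested, those that averaged 10 or more normalized counts over the libraries. RNA was sequenced from white quadriceps, the pale and mostly fast-twitch portion of the thigh muscle, in 8 libraries from male mice aged 11 to 14 weeks. The knockout group (replicates 5 to 8) carried CKM Cre, labelled as a muscle knockout of Acot2, and the control group (replicates 1 to 4) was Loxp/Loxp. Both groups had eaten a 60% fat diet for 7 days, and muscle was taken in the morning. Acot2 encodes a mitochondrial thioesterase, which frees fatty acids from their coenzyme A carrier. The question is whether transcripts for making and modifying fatty acids differ in muscle without that enzyme when fat is plentiful. A diet low in fat was not analysed here, so no value below measures an effect of the diet.

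Cre driven by Ckm, the muscle creatine kinase gene, acts in the fibres of skeletal and heart muscle, so adipocytes, vessels and connective tissue in the same piece are not its target. Cre was present in the knockout group alone, and an effect of Cre cannot be told apart from an effect of losing Acot2. No source used here says whether each library came from a separate mouse, so the p-values rest on the spread among libraries, which may be technical. In a piece of whole muscle, fewer cells of a type and less RNA per cell cannot be told apart.

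As background, new fatty acids are built in the cytosol. Acly splits citrate into acetyl-CoA, the carboxylases Acaca and Acacb turn acetyl-CoA into malonyl-CoA, and Fasn joins these units into palmitate. Scd1 and Scd2 then place a double bond in saturated acyl-CoA, Elovl6 lengthens palmitate, and Fads2 and Elovl5 act in turn on the polyunsaturated fatty acids that come from the diet. Srebf1 encodes SREBP1, the transcription factor through which insulin raises much of this pathway in liver and fat. Muscle fibres make little fat from glucose, and there the malonyl-CoA made by Acacb at the mitochondrial surface is best known as a brake on the entry of fatty acids for oxidation. Adipocytes lie between the fibres of a muscle and express Fasn, Scd1 and Acly strongly.

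The stretch just before a gene's start is where SREBP1 and its partners NF-Y, which binds CCAAT, and SP1, which binds GGGCGG, are known to act. RefSeq promoters of GRCm38.p6 were matched by symbol for 8 of the 10 members. The windows of Fasn, Acly and Elovl5 are shown because they hold these motifs in different numbers. Each is the 120 bases before the start, 5′ to 3′ on the gene's strand, with every CCAAT or GGGCGG on either strand in capitals.
Fasn, chr11:120824548-120824667, minus strand: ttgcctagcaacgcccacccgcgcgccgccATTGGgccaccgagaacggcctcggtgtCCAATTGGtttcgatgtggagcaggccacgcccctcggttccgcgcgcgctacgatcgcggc
Acly, chr11:100528001-100528120, minus strand: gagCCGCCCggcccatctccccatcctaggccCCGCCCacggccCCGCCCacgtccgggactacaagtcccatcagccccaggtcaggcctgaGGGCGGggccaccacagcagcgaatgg
Elovl5, chr9:77917245-77917364, plus strand: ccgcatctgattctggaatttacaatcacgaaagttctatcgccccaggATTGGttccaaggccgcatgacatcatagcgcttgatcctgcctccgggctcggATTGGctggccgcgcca

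In the 250 bases before the start, Fasn had 3 matches to CCAAT, of which the last 2 overlap within CCAATTGG. At least 3 matches were present in 2.79% of the 32851 RefSeq promoter windows of that length, and at least 1 in 33.8%. Acly had 4 matches to GGGCGG, and 4.09% of windows had at least that many. Elovl5 had 2 matches to CCAAT within the sequence shown, and 10.1% of windows had at least 2. Both strands were searched. Such matches describe the letters and say nothing of which factor is bound. The starts given for Acaca and Acacb lie inside the genes as GENCODE draws them, so their windows are not shown.

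Acot2 itself had 324.8, 273.4, 256.4 and 354 normalized counts in the knockout libraries, against 2179.1, 3347.7, 4165.4 and 2166.2 in the control libraries. A normalized count is a read count divided by the size factor of its library, with no correction for gene length. The knockout mean was 10.2% of the control mean (log2 difference -3.24 ± 0.20 SE, limma adjusted p = 4.72e-06), and Acot2 was the 1 gene called at an adjusted p under 0.05. The libraries held 55283987 to 109101296 reads. A floor of 3 reads equals 2.04 to 3.87 normalized counts, and all 10 members lay far above that in all libraries. The fast-fibre myosin gene Myh4 had 2368101.3 to 3058938.2 normalized counts in knockout libraries and 2798455.7 to 3859813.3 in control libraries. The first principal component (34.5% of the variance) set control replicates 3 and 4 apart, with scores of -55.2 and -56.1 beside -0.56 to 38.6 in the other 6 libraries. In control replicates 3 and 4 the shortest quartile of genes by transcript length had medians of -0.31 and -0.33. These are log2 deviations from each gene's mean over libraries. The medians were 0.058 and 0.064 in control replicates 1 and 2, and 0.11 to 0.18 in the knockout libraries. Knockout replicate 5 and control replicate 2 had the highest levels of the adipocyte hormone gene Adipoq, and knockout replicate 8 had 1124.4 normalized counts of the atrial myosin gene Myl7, against at most 4.1 in any other library.

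Per kilobase of exon, the members covered a wide range of levels, as the plot of levels per exon length shows. Scd1 was highest, with a mean of 5592 normalized counts per kilobase over the 8 libraries and a range of 1269 to 14011. Acacb followed at 2270 (1841 to 3209), Srebf1 at 1187 (986 to 1476) and Scd2 at 696 (568 to 801). The range of Scd1 spans that of Acacb, so that pair has no order in every library, whereas Acacb was above Srebf1 and Srebf1 above Scd2 in all libraries. Fasn (373), Acly (284) and Elovl5 (223) came next with overlapping ranges, and the highest Fasn library was above the highest Scd2 library. Acaca (57.4), Fads2 (52.9) and Elovl6 (24.9) were lowest, with ranges that overlap. These levels divide by all annotated exon bases, whether or not they are used in muscle, which was not measured. Acacb, the carboxylase isozyme known from oxidative tissue, exceeded Acaca by 22.9-fold, 52.8-fold, 50.3-fold and 55.2-fold per kilobase in the knockout libraries and by 35.5-fold, 29.9-fold, 46.9-fold and 44.9-fold in the control libraries. The 2 groups overlap in this ratio, and its log2 difference of 0.15 did not differ beyond the spread (exact two-sided permutation p = 0.686, n = 4 each). The size of the ratio depends on the exon lengths used, 17.07 kilobases for Acaca and 9.632 for Acacb. It also depends on how reads were counted, since other annotated genes share 30.4% of the 50-base exon windows of Acaca.

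**Figure D1:**
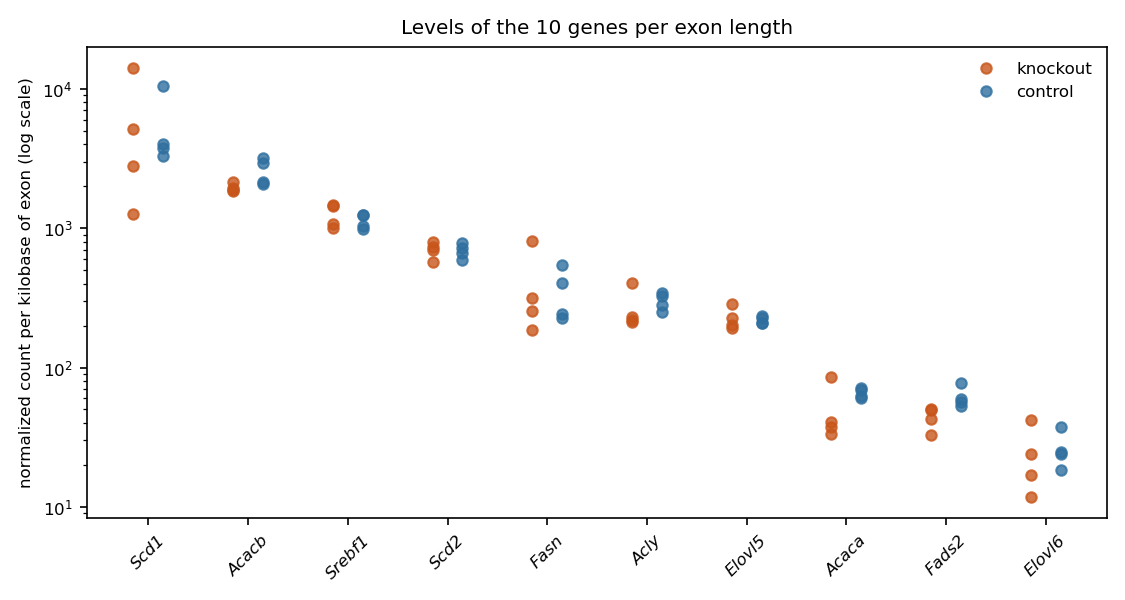
Normalized count per kilobase of exon (log axis) of the 10 genes, 1 point per library, with knockout libraries left of control libraries for each gene and genes ordered by their mean. Scd1 spans 1269 to 14011 and Elovl6 11.8 to 42.2, while Scd2 and Elovl5 keep to narrow ranges in both groups.

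None of the 10 members passed the test between knockout and control (limma, adjusted p of 0.121 to 0.9985), against 1 of 15657 genes tested, or 0.00639%. limma voom on the recovered reads called none of them either. At an unadjusted p under 0.05, Acaca, Acacb and Fads2 were lower in knockout and no member was higher. That is 3 of 10 members beside 13.3% of all genes lower at that threshold, 13.6% higher and 26.9% in either direction. The estimates were above 0 for 3 members and below 0 for 7, with a median log2 difference of -0.23 beside 0.003 over all genes tested. The plot of each gene's values by library shows how much of the spread lies within the groups.

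**Figure D2:**
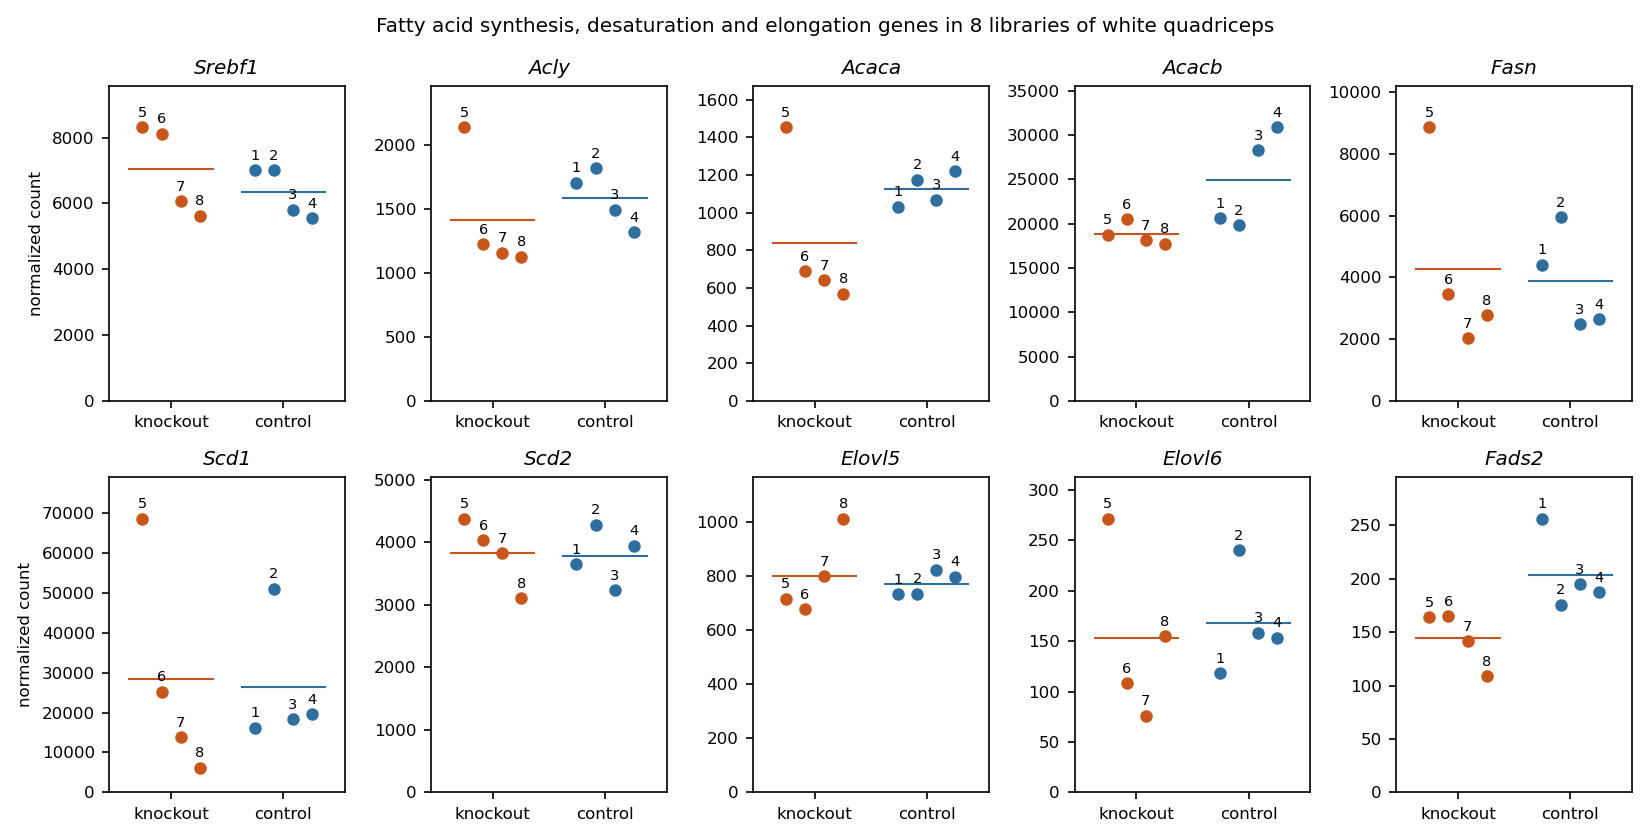
Normalized count (linear axis) of each of the 10 genes, with the 4 knockout libraries left of the 4 control libraries and points numbered by replicate. Knockout replicate 5 is the highest of all 8 libraries for 7 of the 10 genes, all but Acacb, Elovl5 and Fads2, and in Fads2 the highest knockout library (165.1) lies below the lowest control library (175.8).

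Srebf1 (chr11:60199089-60222581, minus strand) had 8318, 8122.6, 6061.9 and 5621.9 normalized counts in knockout replicates 5 to 8, against 7005.6, 7015.3, 5801.7 and 5557.6 in control replicates 1 to 4. The groups overlap, with means of 7031 ± 1387 in knockout and 6345 ± 775 in control libraries (SD, n = 4 each). The log2 difference was 0.135 ± 0.145 SE with a 95% interval of -0.18 to 0.45 (limma adjusted p = 0.566). As a ratio to the control level, that interval runs from 0.885-fold to 1.36-fold. SREBP1 protein must be cut free from the membrane to act, a step that these RNA counts do not measure.

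Acly (chr11:100476353-100528000, minus strand), which supplies cytosolic acetyl-CoA, had 2140.8, 1225.2, 1157.9 and 1128.1 normalized counts in knockout libraries and 1707.4, 1820.6, 1493.5 and 1317.6 in control libraries. Knockout replicate 5 was the highest of all libraries, and the other 3 knockout libraries lay below every control library. The log2 difference was -0.21 ± 0.19 SE over all libraries (limma adjusted p = 0.491). It was -0.43 with knockout replicate 5 left out, still without passing the test, and -0.37 without control replicates 3 and 4.

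Acaca (chr11:84129672-84401651, plus strand), the carboxylase that supplies Fasn, showed the same arrangement more strongly. Its normalized counts were 1454.4, 688.7, 640 and 568.9 in knockout libraries, against 1031, 1174.5, 1069.2 and 1219.9 in control libraries. Knockout replicate 5 exceeded every control library, while the other 3 knockout libraries lay well below all 4 controls. The means were 838 ± 414 in knockout and 1124 ± 88.3 in control libraries (SD, n = 4 each). The log2 difference was -0.53 ± 0.24 SE with a 95% interval of -1.03 to -0.02 (limma adjusted p = 0.1696), and the exact two-sided permutation p was 0.143. Without knockout replicate 5 it was -0.83 (limma adjusted p = 0.0715). Without both knockout replicate 5 and control replicate 2, the libraries highest in Adipoq, it was -0.81 and passed the test (limma adjusted p = 0.0167), in a fit that called 1868 genes in all. With the length and GC trend of each library removed, the difference was -0.23, and the limma adjusted p ran from 0.0167 to 0.808 over the alternatives. Acaca shares sequence with other annotated genes over 30.4% of its 50-base exon windows, Gm5182 among them, so how its reads were counted is uncertain.

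Acacb (chr5:114146535-114250761, plus strand), the isozyme tied to the mitochondrial surface, had 18779, 20529.8, 18149 and 17730.2 normalized counts in knockout libraries. Control libraries had 20645, 19846, 28307 and 30911. The 4 knockout libraries and control replicates 1 and 2 lay close together, and control replicates 3 and 4 were the highest of all. The log2 difference was -0.38 ± 0.15 SE with a 95% interval of -0.69 to -0.07 (limma adjusted p = 0.121), and the exact two-sided permutation p was 0.0571. Its size moved with the control libraries used: -0.11 without control replicates 3 and 4, -0.16 with the length and GC trend removed, and -0.48 without control replicate 2, where it passed the test (limma adjusted p = 0.0422) in a fit that called 2048 genes. Control replicates 3 and 4 are the libraries that stand apart by transcript length, and the part of this in the difference was not tested beyond those values.

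Fasn (chr11:120805846-120824547, minus strand), whose promoter with 3 CCAAT matches is printed above, had 8873.8, 3448.8, 2027.2 and 2781 normalized counts in knockout libraries. Control libraries had 4415.2, 5961.1, 2489.6 and 2646.1. The highest and the lowest library were both knockouts, so the control range lay wholly inside the knockout range. The log2 difference was -0.002 ± 0.496 SE (limma adjusted p = 0.9985). Its 95% interval of -1.16 to 1.16 holds changes of either sign up to about 2.23-fold, which remain possible. Its estimate ranged from -0.50 to 0.28 over the alternatives run and had no stable sign.

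The desaturases differed widely in how much they varied. Scd1 (chr19:44394455-44407879, minus strand), which makes oleate, had 68541, 25218, 13764 and 6207.8 normalized counts in knockout libraries and 16155, 50974, 18394 and 19587 in control libraries. That is an 11.0-fold range over the 8 libraries, and its log2 SD of 1.09 was larger than that of 96.0% of the genes tested. Knockout replicate 5 and control replicate 2 were highest and knockout replicate 8 was lowest. The log2 difference of -0.25 ± 0.77 SE had a 95% interval of -2.07 to 1.57 (limma adjusted p = 0.856).

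Scd2 (chr19:44293674-44306864, plus strand), a close paralog beside Scd1 on the same chromosome, had 4376.5, 4026.6, 3825.2 and 3100.8 normalized counts in knockout libraries. Control libraries had 3645.8, 4276, 3233.2 and 3945.3. Its log2 SD of 0.18 was larger than that of 21.0% of genes, and the groups overlap almost fully. The log2 difference of 0.02 ± 0.13 SE had a 95% interval of -0.26 to 0.29 (limma adjusted p = 0.944). The ratio of Scd1 to Scd2 per kilobase was 17.5, 6.99, 4.02 and 2.24 in knockout libraries and 4.95, 13.3, 6.35 and 5.54 in control libraries (exact two-sided permutation p = 0.771, n = 4 each). Shared 50-base windows made up 4.56% of Scd1 and 3.97% of Scd2.

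Fads2 (chr19:10062765-10101746, minus strand), the desaturase of the polyunsaturated series, was the 1 member whose groups did not overlap. Its normalized counts were 163.9, 165.1, 141.7 and 108.7 in knockout libraries, against 256.4, 175.8, 194.8 and 187.4 in control libraries. All knockout libraries lay below all control libraries, as they did for 7.06% of all genes tested (13.1% had no overlap in either direction). The means were 145 ± 26.4 in knockout and 204 ± 36.1 in control libraries (SD, n = 4 each). The log2 difference was -0.49 ± 0.21 SE with a 95% interval of -0.94 to -0.05 (limma adjusted p = 0.152). The exact two-sided permutation p of 0.0286 is the smallest that 4 against 4 can give. Its estimate stayed between -0.62 and -0.36 over the alternatives run, none of which passed (lowest limma adjusted p = 0.111), where that of Acaca ran from -0.83 to -0.23 and that of Acacb from -0.48 to -0.06.

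The elongases did not pass the test either. Elovl5 (chr9:77917364-77984519, plus strand), which lengthens polyunsaturated acyl-CoA, had 714.6, 675.8, 798.4 and 1010.8 normalized counts in knockout libraries and 731.3, 733.5, 822.2 and 796.3 in control libraries. Its log2 difference of 0.04 ± 0.14 SE had a 95% interval of -0.27 to 0.34 (limma adjusted p = 0.883). Elovl6 (chr3:129532355-129638495, plus strand), which turns palmitate into stearate, had 271.5, 108.3, 76.1 and 155 normalized counts in knockout libraries and 118.2, 240.1, 158.3 and 153.4 in control libraries. Knockout replicate 5 and control replicate 2 were again the highest, and knockout replicates 7 and 6 were the lowest. Its log2 difference of -0.24 ± 0.34 SE had a 95% interval of -0.98 to 0.49 (limma adjusted p = 0.669).

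**Figure D3:**
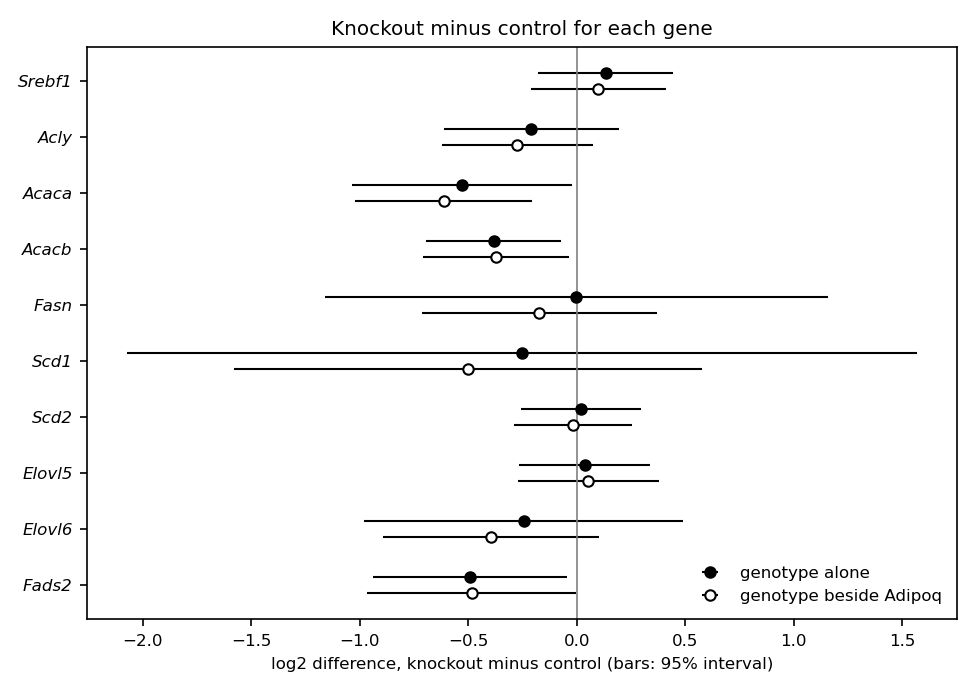
Log2 difference, knockout minus control, of each of the 10 genes with its 95% interval from limma. Filled points are from the fit of genotype alone, and open points from the fit of genotype and log2 Adipoq together. In both fits the intervals of Acaca, Acacb and Fads2 lie below 0, without adjustment for the number of genes tested. Those of Scd2 and Elovl5 are narrow around 0, and those of Fasn and Scd1 are the widest.

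Other genes of the pathway, taken from lists of regulators and enzymes, gave the same count of calls. None of the 18 regulators passed the test. Of these, 8 had estimates above and 10 below 0, and an unadjusted limma p under 0.05 was reached by 1 that was higher and 3 that were lower. Of 28 further enzymes, 25 were tested and none passed. Their estimates were above 0 for 16 and below 0 for 9, and 3 higher and 4 lower ones reached that unadjusted p. Both counts are near the 26.9% of all genes tested that reached it in either direction. The median log2 difference was -0.07 over the regulators and 0.09 over the enzymes, beside 0.003 over all genes tested. limma voom called none of either list. Without control replicate 1, 4 of these genes passed, and without control replicate 2, 5 did.

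Among the regulators, Prkaa2, a catalytic subunit of the kinase AMPK that inactivates both carboxylases, had the smallest p. It had 12653.8, 14041.4, 13610.1 and 12162.7 normalized counts in knockout libraries, against 15547.6, 14878.1, 24168.5 and 27038.9 in control libraries (log2 difference -0.59, limma adjusted p = 0.0810). Its groups did not overlap, and control replicates 3 and 4 were the highest, as they were for Acacb. Mbtps2 and Mbtps1, the proteases that cut SREBP free, had log2 differences of -0.38 and -0.23 (limma adjusted p = 0.0940 and 0.172), and neither overlapped between groups. No overlap with knockout lower was seen in 7.06% of all genes tested, and these regulators were picked by their p. Usf1, a transcription factor of the Fasn promoter, and Mid1ip1, a partner of the carboxylases, had 0.31 and 0.35 (limma adjusted p = 0.169 and 0.201). Thrsp, the lipogenic protein Spot 14, had 3224.7, 2534.4, 2358.7 and 4290 normalized counts in knockout libraries and 2552.6, 3196, 1258.9 and 1279 in control libraries (log2 difference 0.66, limma adjusted p = 0.208). Mlxipl, the glucose-sensing counterpart of Srebf1, and Insig1, which holds SREBP back, had -0.12 and 0.04 (limma adjusted p = 0.459 and 0.886). Leaving out control replicates 3 and 4 gave log2 differences of -0.22 for Prkaa2, -0.21 for Mbtps2, 0.11 for Usf1, 0.06 for Mid1ip1 and 0.08 for Thrsp. With the length and GC trend of each library removed instead, Mbtps1 had -0.001, Mbtps2 -0.20 and Prkaa2 -0.30.

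Among the enzymes, Acsl1, which activates fatty acids to acyl-CoA, and Mecr, of mitochondrial fatty acid synthesis, had the smallest p. Their log2 differences were -0.56 and 0.56 (limma adjusted p = 0.0796 for each), and neither overlapped between groups. No overlap in either direction was seen in 13.1% of all genes tested, and these enzymes were picked by their p. Gpam, the first acyltransferase of triglyceride synthesis, had 3727, 5447.7, 3457.2 and 4437.6 normalized counts in knockout libraries, against 5306.8, 6285.8, 15209.7 and 12040.3 in control libraries (log2 difference -1.07 ± 0.32 SE, limma adjusted p = 0.0861). Control replicates 3 and 4 were again the high ones, and without them the log2 difference was -0.46 for Gpam, -0.30 for Acsl1 and 0.28 for Mecr. Cyb5a, the electron donor of the desaturases, had 0.45 with no overlap between groups, and Hlcs, which attaches biotin to the carboxylases, had -0.38 (limma adjusted p = 0.111 and 0.115), with 0.21 and -0.19 once control replicates 3 and 4 were left out. Fads1, which follows Fads2 on the polyunsaturated path, had 0.08, Elovl1 0.28 and the NADPH source Me1 -0.05 (limma adjusted p = 0.781, 0.391 and 0.822). Of the remaining desaturases, Scd4 had 4.8, 5.2, 11.5 and 46.4 normalized counts in knockout libraries and 1.1, 8, 1.7 and 14.3 in control libraries (limma adjusted p = 0.387). Scd3, with 0 to 2.6 in knockout and 0.7 to 6.3 in control libraries, was too low to test.

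Whether the members follow adipocyte transcripts was read across the 8 libraries. Adipoq had 3843.3, 1917.8, 1233 and 1773.9 normalized counts in knockout replicates 5 to 8, against 1191.4, 3362.9, 1359.2 and 1793.5 in control replicates 1 to 4. Knockout replicate 5 and control replicate 2 were thus highest, 1 from each group, and they were separated from the other 6 libraries by 0.81 on the log2 scale out of a whole range of 1.69. The difference between groups was 0.18 ± 0.41 SE on the log2 scale (limma adjusted p = 0.804). Of 12 adipocyte markers, 10 had estimates above 0 and none passed the test, with 3 at an unadjusted limma p under 0.05, beside 13.6% of all genes that were higher at that threshold. Fabp4 (0.75, limma adjusted p = 0.0796) and Adig (0.68, limma adjusted p = 0.0810) were among them. The summed markers reached 33794.2 to 59139.1 normalized counts in knockout libraries and 24041.9 to 46033.3 in control libraries, and no marker was at 0 in any library.

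For 5 of the 10 members (Acly, Fasn, Scd1, Scd2 and Elovl6), knockout replicate 5 and control replicate 2 were the highest 2 of the 8 libraries. The same held for 9 of the 12 adipocyte markers, among them Adipoq, which defined the pair. It held for 441 of 15657 genes tested, or 2.82%. Over all 8 libraries, log2 values of Elovl6 had a Pearson r of 0.84 with Adipoq (exact permutation p = 0.0121, Benjamini-Hochberg 0.0870 over the 10 members) and a Spearman rho of 0.62. Fasn had r = 0.81 (exact permutation p = 0.0174, adjusted 0.0870) and rho = 0.62. Scd1 had r = 0.77 (exact permutation p = 0.0262, adjusted 0.0874) and rho = 0.83. An r of at least 0.7 was reached by these 3 members and by 1.33% of all genes tested. Scd2 (0.65), Acly (0.61), Srebf1 (0.55) and Acaca (0.50) had a positive and lower r, and Acacb (-0.23), Elovl5 (-0.30) and Fads2 (-0.18) were negative. By rank, Scd2 had rho = 0.79 (exact permutation p = 0.0279, adjusted 0.1396). None of the 10 passed the adjustment by r or by rho. An unadjusted exact permutation p under 0.05 was reached by 3 members for r and 2 for rho.

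Within the 6 libraries other than knockout replicate 5 and control replicate 2, Pearson r was lower for each member positive over all 8. There r was 0.03 for Fasn, 0.01 for Scd1, 0.41 for Elovl6, 0.13 for Scd2, 0.08 for Srebf1, -0.19 for Acaca and -0.54 for Acly (exact permutation tests, Benjamini-Hochberg 0.992 for each). Spearman rho there was 0.6 for Scd1 and 0.49 for Scd2, 0.09 for Fasn, Elovl6 and Acaca, -0.14 for Srebf1 and -0.37 for Acly. Those 2 libraries were left out for their Adipoq values, which narrows the range, and the members' plots against Adipoq show the gap. Leaving out any single library, r stayed at 0.637 to 0.977 for Fasn, 0.61 to 0.982 for Scd1 and 0.742 to 0.9 for Elovl6. Whether members follow Adipoq among the other 6 cannot be decided from so few libraries over a narrower range. Set against the mean of the adipocyte markers in place of Adipoq, Fasn had r = 0.89 and passed the adjustment (exact permutation test, Benjamini-Hochberg 0.0372), the only member to do so. Single libraries also decided the call: without control replicate 1, Fasn had r = 0.98 with Adipoq itself, and without knockout replicate 8, Scd1 had r = 0.98 (exact permutation tests, n = 7, Benjamini-Hochberg 0.00397 for each).

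**Figure D4:**
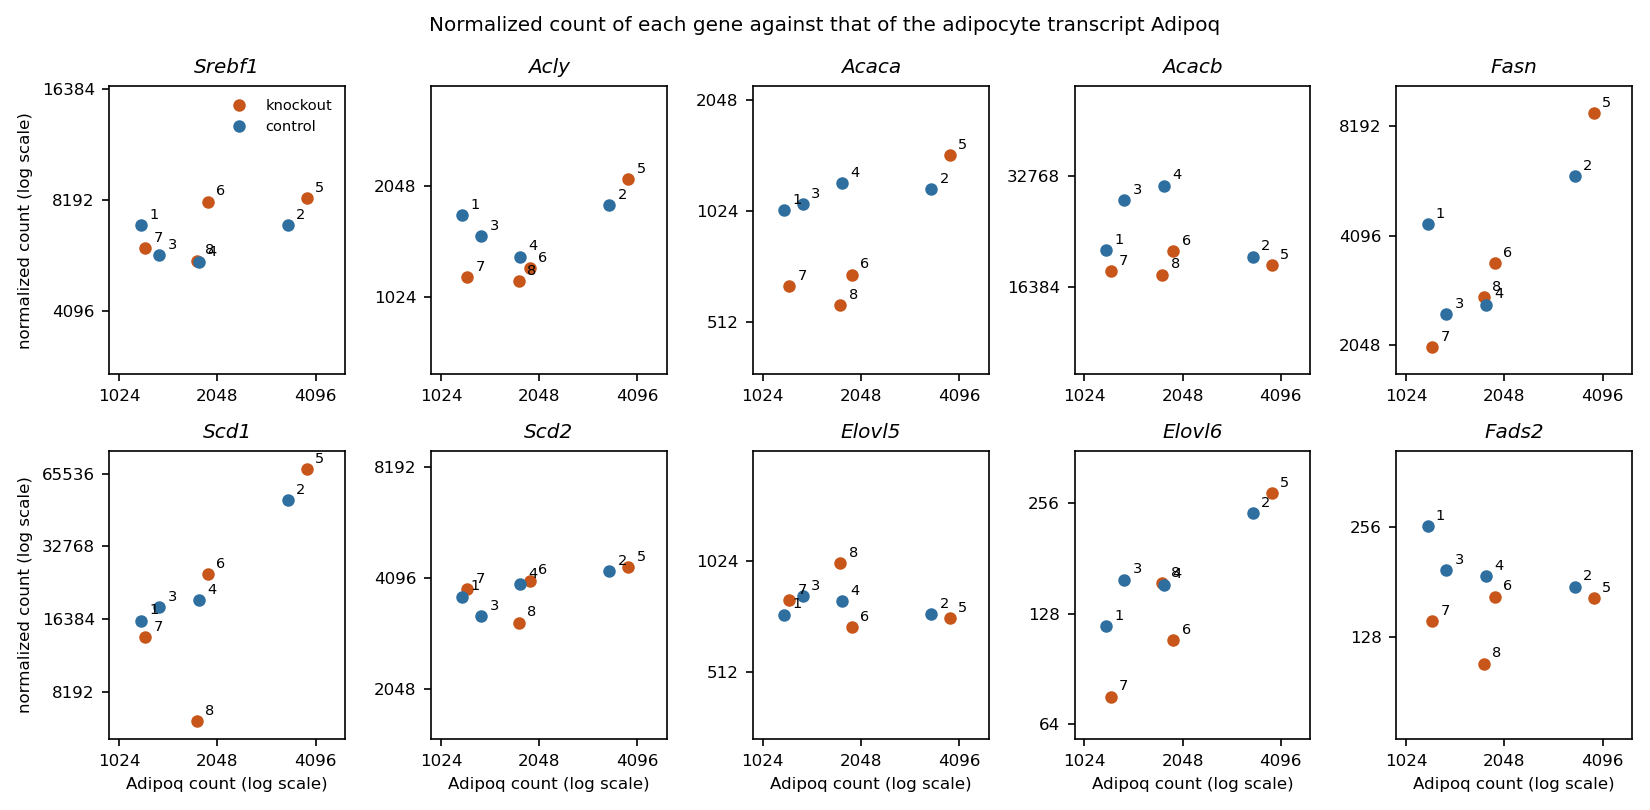
Normalized count of each of the 10 genes against that of Adipoq (both axes log), with points coloured by group and numbered by replicate. Knockout replicate 5 and control replicate 2 lie apart at the right, and Fasn, Scd1 and Elovl6 are highest there, whereas Acacb, Elovl5 and Fads2 are not.

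With genotype and log2 Adipoq fitted together over all genes, the coefficient of Adipoq was 0.94 ± 0.21 SE for Fasn, 1.39 ± 0.39 for Scd1, 0.84 ± 0.20 for Elovl6, 0.47 ± 0.16 for Acaca and 0.36 ± 0.14 for Acly. None of the 10 members passed (limma adjusted p of 0.383 for Fasn, 0.401 for Elovl6 and 1 for the others named), where 4 of 15656 genes, or 0.0255%, passed with a positive coefficient. At an unadjusted limma p under 0.05, these 5 members had a positive coefficient, beside 1.30% of genes. In that fit the genotype difference of Fasn was -0.17 ± 0.25 SE, of Scd1 -0.50 ± 0.46 SE, of Elovl6 -0.40 ± 0.23 SE and of Acly -0.27 ± 0.16 SE. The standard error of Fasn was 0.248 with Adipoq in the fit and 0.496 without it. The difference of Acaca was -0.61 ± 0.19 SE (limma adjusted p = 0.125), that of Acacb -0.37 ± 0.16 SE and that of Fads2 -0.49 ± 0.22 SE, close to their values without Adipoq. With the mean of the adipocyte markers fitted in its place, the genotype difference was -0.45 for Fasn (95% interval -0.80 to -0.09), -0.81 for Scd1 (-2.05 to 0.43), -0.575 for Elovl6 (-1.12 to -0.03) and -0.38 for Acly (-0.70 to -0.06). In that fit Acaca had -0.72 (-1.14 to -0.31), and none of the 10 members passed (lowest limma adjusted p = 0.178). Of the 12 markers in that mean, 10 had estimates above 0 in knockout and none passed the test (median log2 difference 0.355). The mean thus leans with genotype, and the differences from that fit depend on it.

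The genes whose pattern over the 8 libraries was most like that of a member were named by their Pearson r, as a description over libraries that share their depth and makeup. For Fasn these were Apol9b (0.98), Agpat2 (0.98), an acyltransferase of triglyceride synthesis, and Hivep3 (0.96), with Plin1, the coat protein of adipocyte lipid droplets, in place 5 (0.95). The 12 adipocyte markers were not alike in this. The lowest r with Fasn were 0.44 for Fabp4, 0.15 for Adig and 0.03 for Cfd. The remaining markers ran from 0.74 (Lipe) to 0.95 (Plin1). For Scd1 they were Cdsn (0.98), Hacd2 (0.97), a dehydratase of the elongation cycle, and the leptin gene Lep (0.97), an adipocyte marker. The lowest r of adipocyte markers with Scd1 were 0.07 (Fabp4), 0.06 (Adig) and -0.45 (Cfd). The remaining markers ran from 0.48 (Cebpa) to 0.97 (Lep), with 0.88 for Pparg and 0.77 for Adipoq. For Srebf1 they were Serpina3m (0.97), Fgfr1 (0.96) and Trim63 (0.96), a ubiquitin ligase of muscle atrophy. The highest of the 12 adipocyte markers for Srebf1 was Retn, at 0.79 in place 233.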

How the data were processed

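RNA-seq of 8 muscle libraries was used. The submitters' processing notes name STAR, HTSeq, DESeq2, cutadapt and FastQC, and the build GRCm38. Their versions and settings, the annotation and the strand are not given in sources used here. Without strand, overlapping genes on opposite strands cannot be told apart. The authors deposited log2 values. With the log2 undone and 1 subtracted, 100% of low values lay within 0.1 of a whole read once divided by 1 step per library, as read counts over a size factor would. No column was left unused, and 27 names turned into dates were restored.

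Groups came from the labels. The chi-square per gene within groups was 32.7 to 241.8 over 12 pairs, far above counting noise, so each library was counted once, which does not show that they came from separate mice. Genes averaging 10 or more normalized counts were tested on log2(normalized count + 1), a scale that understates changes of low genes, with limma 3.58.1 in R 4.3.3 (trend and robust options, Benjamini-Hochberg at 0.05). The design foresaw this unit, and no count model was the main test. Differences are knockout minus control, with 95% intervals. Counting error alone is covered by the 3-read floor. Single values had exact permutation tests (scipy 1.17.1). Coordinates and exon lengths came from GENCODE on GRCm38, which need not be the annotation counted.

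The members and lists were chosen with earlier results of these data known. Named genes were all members, Acot2, Adipoq and the adipocyte markers, the 5 smallest p of each pathway list with 8 genes set by name, and the 3 genes most like Srebf1, Fasn and Scd1. The remaining markers named were chosen after their values were seen. Alternatives changed the pseudocount, filter, scaling, variance model, covariates and libraries. Those chosen after seeing the data left out control replicate 2 with knockout replicate 5, left out control replicates 3 and 4 with the trend removed, or fitted Adipoq over all genes.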

Additional observations from a re-analysis of the deposited data

Results flagged for a closer look

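Of 24 groups of 4 libraries examined for a library far from the rest, 2 had one, and chance gives about 1 in 20. Acly in knockout replicate 5 (2140.8 normalized counts, against 1128.1 to 1225.2 in the other knockout libraries) had a gap of 0.871 of the group's range on the log2 scale. Scd1 in control replicate 2 (50974 normalized counts, against 16155 to 19587 in the other control libraries) had a gap of 0.832 of the group's range. Both libraries are the highest in Adipoq, and the part of that in either value was not tested.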

How the results depend on the processing

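No paired analysis was possible because the replicate numbers run 1 to 4 in control and 5 to 8 in knockout libraries and none is shared. Of 220 values of the members' differences under alternatives, 197 kept their direction and side of the threshold, 21 changed sign and 2 newly passed. The count of all genes called, 1 as reported, was 2 with no filter, 2 at equal totals, 7 with plain eBayes, 1201 with sample quality weights, 6 with the length and GC trend removed, 1868 without control replicate 2 and knockout replicate 5, and 1 to 2048 leaving out single libraries. Members called, 0 as reported, were 1 without control replicate 2 and knockout replicate 5 (Acaca) and 0 to 1 leaving out single libraries. Other pathway genes called, also 0, were 3 with sample quality weights, 2 without that pair and 0 to 5 leaving out single libraries. Members related to Adipoq, 0 as reported, were 1 against the adipocyte marker mean and 0 to 1 leaving out single libraries.

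Log2 differences that changed sign were these, and the cause was not tested. Fasn was 0.005 at equal totals, 0.007 with quantile normalization, 0.004 with voom and 0.24 with the trend removed, where Me1 was 0.011. Insig1 was -0.011 with sample quality weights. Without control replicates 3 and 4, Srebf1 was -0.017, Scd2 -0.054, Insig1 -0.157 and Fads1 -0.010. With the trend removed as well, Scd2 was -0.016, Adipoq -0.042, Mid1ip1 -0.004, Insig1 -0.166 and Fads1 -0.001. With Adipoq as a covariate, Scd2 was -0.016 and Insig1 -0.008, and with the adipocyte marker mean they were -0.058 and -0.086. Fads1 was -0.047 without control replicate 2 and knockout replicate 5. Leaving out single libraries gave -0.43 to 0.28 for Fasn, -0.85 to 0.30 for Scd1, -0.054 to 0.116 for Scd2, -0.081 to 0.113 for Elovl5, -0.574 to 0.034 for Elovl6, -0.13 to 0.49 for Adipoq, -0.056 to 0.128 for Insig1, -0.004 to 0.194 for Fads1 and -0.130 to 0.001 for Me1. Without the 2 libraries farthest from the median of Adipoq, correlations with it changed sign for Acly (-0.54), Acaca (-0.19), Acacb (0.14) and Elovl5 (0.11). That of Fads2 was -0.34 to 0.15 leaving out single libraries.

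With 4 libraries a group, the 95% intervals of the log2 difference were -1.16 to 1.16 for Fasn and -2.07 to 1.57 for Scd1. Changes within them remain possible, whereas the intervals of Scd2 and Elovl5 were narrower, -0.26 to 0.29 and -0.27 to 0.34. Differences of Acacb, Prkaa2 and Gpam were smaller without control replicates 3 and 4, and the number of genes called depends on which libraries are kept.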

Other observations

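Markers of other cells differed between libraries beside the genes above. The 8 macrophage markers all had estimates above 0 in knockout, with 7 at an unadjusted limma p under 0.05, beside 13.6% of all genes higher at that threshold, and none passing. They summed to 11897.9 to 19108.4 normalized counts in knockout libraries and 7578.5 to 11690.2 in control libraries. With each marker weighted alike, as the mean log2 deviation from its mean over libraries, the groups overlapped. That mean was -0.24 to 0.56 in knockout and -0.65 to -0.17 in control libraries. Fibro-adipogenic progenitors are the mesenchymal cells between fibres, and their 8 markers also had estimates above 0, with 6 at an unadjusted limma p under 0.05 and none passing. Estimates of the 6 endothelial markers were above 0 for 3 and below for 3. Those of the 8 Schwann cell markers were above 0 for 2 and below for 6.

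Brown adipocyte genes were uneven. Ucp1, the uncoupling protein of brown fat, had 1458.2, 16.8, 0 and 885.1 normalized counts in knockout replicates 5 to 8 and 12.7, 12.1, 133.4 and 0 in control replicates 1 to 4. Cidea, a lipid droplet protein of brown fat, had 927.9, 181.9, 137.6 and 858.2 in knockout libraries and 129.8, 111.5, 252.8 and 116.1 in control libraries. Knockout replicates 5 and 8 were the highest in both and in Otop1 (158 and 80.6), and had 68541 and 6207.8 normalized counts of Scd1. The other 3 genes of the brown adipocyte list did not share that pattern. Knockout replicate 5 was the lowest library for Zic1 (60.1) and Ppara (74.7), with 63.5 and 113.5 in knockout replicate 8, and Dio2 had 155.1 and 377.2 in these libraries. The log2 differences were -0.57 for Zic1 and -0.93 for Ppara (limma adjusted p = 0.181 and 0.121). Elovl3, an elongase known from brown fat, had 7.3 to 17.1 normalized counts in knockout libraries and 4.1 to 13.3 in control libraries.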
